A study of Zea mays with 48 samples.

Results

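The genes described here are the 77 maize genes whose transcript level was at least 1 log2 unit higher at a maximum daily temperature of 37 °C than at 31 °C in every series measured. The 4 series are the inbred W22 and the mutant bzip60-2, each at the V4 and the V5 leaf stage. A log2 unit is a 2-fold step, here on the scale of log2(FPKM + 1). FPKM is a count of sequenced fragments scaled to the transcript's length and to the size of the library. The members were taken from the 20570 genes with a Zm00001d identifier that reached 1 FPKM in at least 3 libraries, and they made up 0.374% of them. All 77 therefore passed the filter on low values. Of the 2224 other rows of the table that passed it, 9 met the same thresholds and were not members.

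Leaf RNA was sequenced from 48 libraries, 3 for each of 16 groups. The groups are W22 and bzip60-2, at V4 (20 days after germination) and V5 (27 days), at maximum daily temperatures of 31, 33, 35 and 37 °C. All plants had a 16 h light period and nights 10 °C cooler than the daily maximum, and the tissue was the middle of the newest fully expanded leaf. The 8 growth chambers gave 2 chambers for each temperature, so an effect of temperature and one of its chambers cannot be told apart. The labels do not say what kind of allele bzip60-2 is, and the mutated gene's own transcript was not looked at. They describe a replicate both as a sample of several plants and as a sample of 1 plant, so the p-values measure the spread between these samples. A lower level in leaf RNA can reflect fewer cells of a type or less RNA per cell, which cannot be told apart in bulk samples.

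Plants meet high temperature with the heat stress response, in which heat shock transcription factors raise genes for chaperones, the proteins that hold other proteins in shape or refold them. Unfolded proteins in the endoplasmic reticulum set off a second programme, the unfolded protein response. In plants, one arm of it runs through the splicing of bZIP60 messenger RNA by the endonuclease IRE1, after which the bZIP60 protein acts as a transcription factor. The study asked how these programmes are linked in maize, and the members are the genes whose level was higher at 37 °C in both W22 and bzip60-2. None of the 77 identifiers matched the annotation table used here, so no member is given a gene name, a function or a leaf cell type, and no sequence is printed.

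The members were chosen by the rise from 31 to 37 °C, which is given as a description, with no test. Its median over the 77 members was 1.53 log2 units in W22 V4, 1.90 in W22 V5, 1.99 in bzip60-2 V4 and 1.87 in bzip60-2 V5. The largest single rise was 7.27, in bzip60-2 V5. The members closest inside the threshold were Zm00001d013489 and Zm00001d037899, each with a smallest rise of 1.02. The genes closest outside it were Zm00001d042863, at 0.999 in bzip60-2 V4, and Zm00001d030587, at 0.997 in W22 V5.

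The members ranged from nearly silent to very abundant transcripts. Their mean level at 31 °C over the 4 series had a median of 4.91 FPKM, against 7.31 FPKM over all 22794 genes tested, and ran from 0.126 to 606 FPKM. At 37 °C it had a median of 22.9 FPKM and ran from 2.01 to 2105 FPKM. Zm00001d016070 was the highest member at both temperatures, followed at 37 °C by Zm00001d022630 at 1626 FPKM. Below 1 FPKM at 31 °C lay 14 members, and above 100 FPKM at 37 °C lay 16. The spread between the 3 libraries of a group, as the SD of log2(FPKM + 1), had a median of 0.132 over members and 0.134 over all genes. No member shared all 48 values with another gene. Zm00001d003999, Zm00001d011797, Zm00001d027902 and Zm00001d042062 were listed at 0 in at least 1 library.

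Before the results, 1 library and 1 group need a remark. Zm00001d033132, which is not a member, lay between 0 and 1.29 FPKM in 14 libraries and between 60.5 and 324 FPKM in the other 34. The 14 are the bzip60-2 V4 libraries at 31 °C and all W22 V4 libraries except replicate 3 at 37 °C, which so stands apart from its group. With W22 V4 at 37 °C taken from replicates 1, 2 and 3 alone, the median rise of the members was 1.60, 1.58 and 1.51, and 72, 72 and 71 members reached 1. Zm00001d011797 (0.84, −0.07 and 2.71), Zm00001d028557 (0.63, 0.50 and 2.68) and Zm00001d037899 (0.86, 0.75 and 1.46) reached 1 in replicate 3 only. Their membership therefore rests on that library. The comparisons of genotypes at V4, of stages in W22 and of the genotype difference between stages set libraries of these 2 sets against each other. So do the described differences from 31 °C in bzip60-2 V4, among them the rise to 37 °C that the rule used. The comparisons of 35 with 33 °C, of genotypes at V5 and of stages in bzip60-2 do not.

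**Figure D1:**
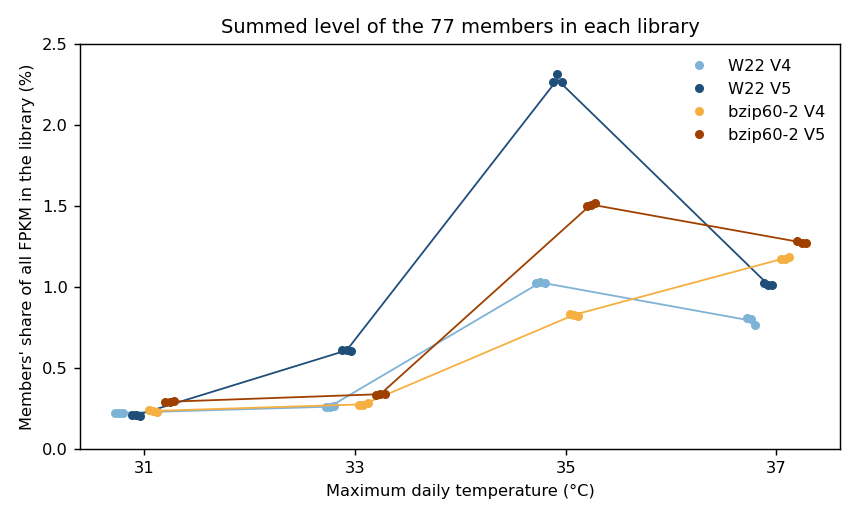
Share of all FPKM in each library that falls on the 77 members (vertical axis, percent) against maximum daily temperature in °C. Points are libraries, slightly offset for visibility, and lines join the means of the 3 libraries of a group. At V5 and in W22 V4 the highest share is at 35 °C, and in bzip60-2 V4 it is at 37 °C.

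The summed level of the members peaked at 35 °C in 3 of the 4 series. In W22 V5 they held 0.207% ± 0.00237 (SD, n = 3) of all FPKM at 31 °C and 0.608% ± 0.00498 at 33 °C. The share was 2.28% ± 0.0301 at 35 °C and was 1.01% ± 0.00587 at 37 °C. In bzip60-2 V5 the shares in the same order were 0.291%, 0.337%, 1.51% and 1.27%. In W22 V4 they were 0.222%, 0.260%, 1.03% and 0.791%. In bzip60-2 V4 the share went on rising to the highest temperature, from 0.234% over 0.275% and 0.828% to 1.18%. The plot of the summed level by library shows that the 3 libraries of each group lay close together, with no overlap between 33 and 35 °C in any series. In every group 5 members held between 50.3% and 61.7% of the summed level, so it mainly follows a few abundant genes. The shares at 31 and 37 °C follow in part from how the members were chosen.

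Nearly all single members had their highest mean at 35 or at 37 °C. The highest group mean was at 35 °C in 36 members and at 37 °C in 41 in W22 V4, and at these temperatures in 34.6% and 32.2% of all genes. In W22 V5 it was at 35 °C in 46 members, at 37 °C in 30 and at 33 °C in Zm00001d049902. Of all genes in that series, 18.3% peaked at 35 °C, 13.0% at 37 °C and 53.9% at 33 °C. In bzip60-2 V4 it was at 35 °C in 8, at 37 °C in 68 and at 33 °C in Zm00001d016361, against 14.5%, 43.4% and 9.89% of all genes. In bzip60-2 V5 it was at 35 °C in 32 and at 37 °C in 45, against 18.3% and 21.8%. The rule itself favours a high mean at 37 °C, so these shares carry no test. A peak at 35 °C in both V5 series was found in 30 members and a peak at 35 °C in no series in 23. The 5 members that peaked there in all 4 series were Zm00001d012420, Zm00001d028555, Zm00001d028560, Zm00001d028561 and Zm00001d042922.

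**Figure D2:**
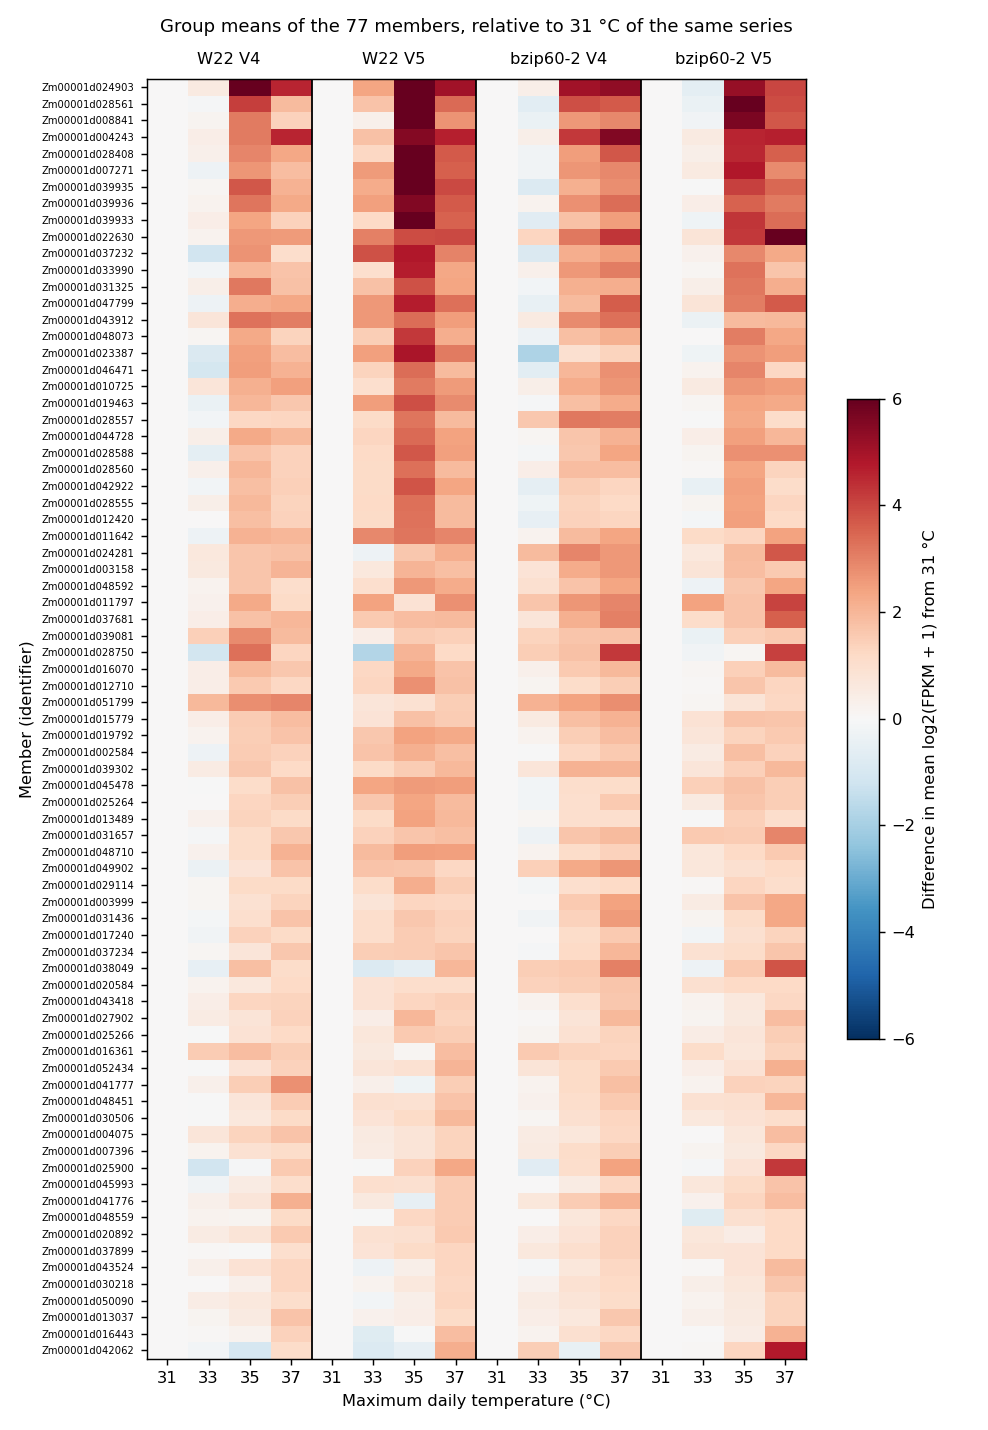
Group means of log2(FPKM + 1) of the 77 members (rows, identifiers), each as the difference from 31 °C of the same series, for the 16 groups (columns, maximum daily temperature in °C within each series). Rows are ordered by the mean difference at 35 °C and colours are capped at a difference of 6 in either direction. The 35 °C columns of the V5 series hold the darkest cells in the upper rows, and many rows are pale at 33 °C except in W22 V5.

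The difference between 33 and 31 °C was small in 3 series and larger in W22 V5, where the median of all genes was also higher at 33 °C. Its median over members was 0.19 in W22 V4, 0.22 in bzip60-2 V4, 0.22 in bzip60-2 V5 and 1.13 in W22 V5. Over all genes it was −0.05, −0.11, 0.05 and 0.30 in the same order. With size factors the member median in W22 V5 was 0.80, and that of all genes 0.03. By 33 °C the median member had covered 58.0% of its rise to 37 °C in W22 V5, against 9.89% in W22 V4, 12.2% in bzip60-2 V4 and 12.7% in bzip60-2 V5. At 35 °C the median share of the rise was 115% in W22 V5, 97.9% in W22 V4, 76.9% in bzip60-2 V4 and 83.7% in bzip60-2 V5. The step from 33 to 35 °C was the largest of the 3 steps in 57 members in W22 V4, 35 in W22 V5, 57 in bzip60-2 V4 and 43 in bzip60-2 V5. The step from 31 to 33 °C was the largest in 29 members in W22 V5, and in W22 V4 in 5 members, Zm00001d004075, Zm00001d016361, Zm00001d039081, Zm00001d050090 and Zm00001d051799. The 4 means followed the order of temperature in 26 members in W22 V4, 16 in W22 V5, 45 in bzip60-2 V4 and 33 in bzip60-2 V5. Shares of all genes for the largest step and for this order were not computed, so these counts only describe the members. The heat map of group means shows these patterns member by member.

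The libraries at 33 and 35 °C played no part in the choice of the members, and only these were tested. Tests were two-sided contrasts in limma over all 22794 genes with Benjamini-Hochberg adjustment, and a change was called at an adjusted p under 0.05. From 33 to 35 °C the great majority of the members rose in every series, and 50 of 77 rose in all 4, as did 3.75% of all genes tested. Rises in 3, 2 and 1 series were found in 11, 9 and 6 members. The remaining member, Zm00001d037899, rose in none. It is also one of the 2 members closest to the threshold of the rule.

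In W22 V4, 70 members rose and 1 fell, against 31.1% of all genes higher and 7.98% lower. The median change was 1.28 log2 units over members and 0.13 over all genes. By at least 1 log2 unit, 52 members rose and 0 fell, against 1.86% and 0.412% of all genes.

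In bzip60-2 V4, 66 members rose and 2 fell, against 25.2% and 7.38% of all genes. The median change was 1.25 over members and 0.12 over all genes. At or past 1 log2 unit, 45 rose and 1 fell, against 1.64% and 0.158%.

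In W22 V5, where more genes fell than rose, 58 members rose and 4 fell, against 13.0% and 38.3% of all genes. The median change was 0.93 over members and −0.17 over all genes. Counting changes of at least 1 log2 unit, 36 rose and 2 fell, against 2.47% and 3.69%.

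In bzip60-2 V5, 63 members rose and 2 fell, against 17% (3853 of 22794) and 26.2% of all genes. The median change was 1.21 over members and −0.06 over all genes. By at least 1 log2 unit, 44 rose and 0 fell, against 2.58% and 2.22%.

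**Figure D3:**
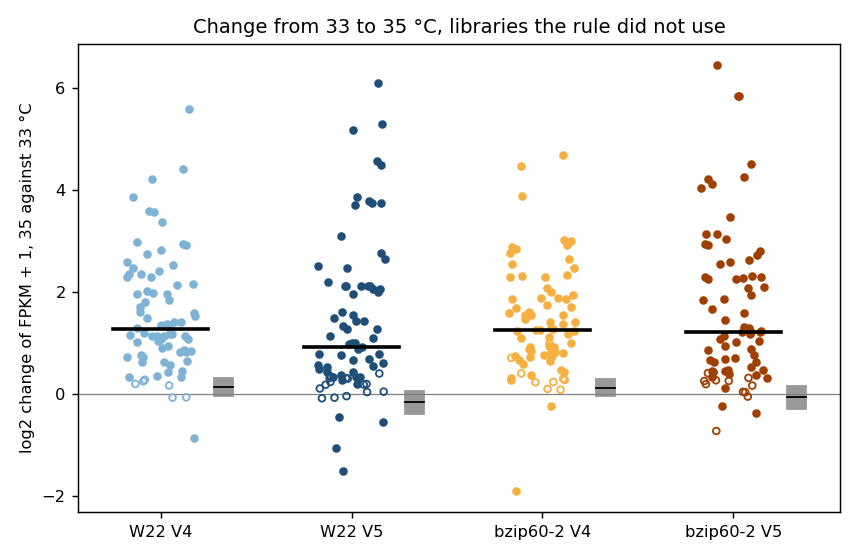
Change of each of the 77 members from 33 to 35 °C on the log2(FPKM + 1) scale in the 4 series. Filled points passed an adjusted p under 0.05 in limma and open points did not. The thick line is the median of the members, and the grey box beside it spans the quartiles of all genes with their median. The member medians, 1.28, 0.93, 1.25 and 1.21, lie above the upper quartile of all genes in each series.

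Zm00001d024903 was one of the members that rose most from 33 to 35 °C. In W22 V4 its 3 libraries held 1.95, 2.64 and 2.16 FPKM at 33 °C and 156, 153 and 155 FPKM at 35 °C. In W22 V5 they held 41.4, 39.7 and 37.8 FPKM at 33 °C and 958, 959 and 963 FPKM at 35 °C. The groups were far apart in both stages. The change in W22 V4 was 5.59 ± 0.0777 log2 units (SE, adjusted p = 1.12e-36 in limma). In bzip60-2 V4 it was 4.68 ± 0.0777 (adjusted p = 6.66e-34 in limma), from 4.73, 4.77 and 4.81 FPKM to 144, 150 and 148 FPKM. At 37 °C its level lay below that at 35 °C in W22 V5, with 255, 254 and 257 FPKM, and above it in bzip60-2 V4, with 177, 172 and 179 FPKM.

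Zm00001d008841 was close to silent at 33 °C, Zm00001d028561 was low there in some series, and both rose steeply at V5. Zm00001d008841 lay at 2.07, 1.37 and 0.90 FPKM at 33 °C in W22 V5 and at 160, 168 and 165 FPKM at 35 °C, then at 12.5, 10.6 and 11.9 FPKM at 37 °C. All 35 °C libraries were above all others of that series. The change was 6.10 ± 0.183 in W22 V5 (adjusted p = 2.09e-26 in limma) and 5.85 ± 0.183 in bzip60-2 V5 (adjusted p = 8.78e-26 in limma).

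Zm00001d028561 lay at 6.55, 5.67 and 7.5 FPKM at 33 °C and at 626, 680 and 671 FPKM at 35 °C in bzip60-2 V5. The 2 groups did not overlap, and the change was 6.45 ± 0.131 (adjusted p = 7.35e-32 in limma). In bzip60-2 V4 it was 4.47 ± 0.131 (adjusted p = 3.1e-26 in limma). Zm00001d039933 rose by 5.30 ± 0.178 in W22 V5 (adjusted p = 7.96e-25 in limma), from 3.19, 2.61 and 4.28 FPKM to 166, 167 and 172 FPKM.

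Few members fell from 33 to 35 °C, and some of them fell in more than 1 series. Zm00001d042062 lay at 0.61, 0.96 and 0.96 FPKM at 33 °C in W22 V4 and was listed at 0 in all 3 libraries at 35 °C. In bzip60-2 V4 it lay at 4.56, 4.79 and 3.73 FPKM at 33 °C and at 0.47, 0.32 and 0.50 FPKM at 35 °C. Neither pair of groups overlapped. The fitted changes were −0.88 ± 0.153 (adjusted p = 1.26e-05 in limma) and −1.90 ± 0.153 (adjusted p = 6.91e-13 in limma), on a scale that understates changes of low genes. At 37 °C the same gene reached 36.6, 37.2 and 33.6 FPKM in bzip60-2 V5.

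Zm00001d016361 fell in 3 series, by 0.24 in bzip60-2 V4 (adjusted p = 0.00859 in limma), by 0.38 in bzip60-2 V5 (adjusted p = 3.91e-05 in limma) and in W22 V5. Without replicate 2 at 35 °C the fall in bzip60-2 V4 had an adjusted p of 0.0694 in limma. In W22 V5 its libraries lay at 10.0, 9.43 and 9.07 FPKM at 33 °C, at 6.19, 6.95 and 6.71 FPKM at 35 °C and at 23.5, 25 and 22.4 FPKM at 37 °C. The 35 °C libraries were the lowest of these.

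Zm00001d041776 and Zm00001d041777, which have consecutive identifiers, fell in W22 V5 and rose in the other 3 series. Zm00001d041776 went from 6.04, 4.90 and 5.33 FPKM at 33 °C to 1.70, 2.42 and 2.11 FPKM at 35 °C in W22 V5, a change of −1.06 ± 0.102 (adjusted p = 2.34e-11 in limma). In bzip60-2 V4 it lay at 13.2, 12.8 and 12.5 FPKM at 33 °C and at 23.3, 25 and 23.1 FPKM at 35 °C. The 2 groups did not overlap in either series.

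The other falls were less stable. Zm00001d011797 fell by 1.51 ± 0.526 in W22 V5 (adjusted p = 0.0157 in limma), with libraries at 4.98, 5.38 and 7.03 FPKM at 33 °C and at 0, 2.92 and 2.37 FPKM at 35 °C. Without replicate 1 at 35 °C its adjusted p was 0.187 in limma, and without replicate 3 at 33 °C it was 0.0551. Zm00001d020892 fell by 0.24 in bzip60-2 V5 (adjusted p = 0.0222 in limma), from 4.24, 4.34 and 4.39 FPKM to 4.21, 3.22 and 3.13 FPKM. That call was lost without any one of the V5 mutant libraries of replicates 2 and 3 at 33 or at 35 °C, with adjusted p-values from 0.0519 to 0.137 in limma.

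**Figure D4:**
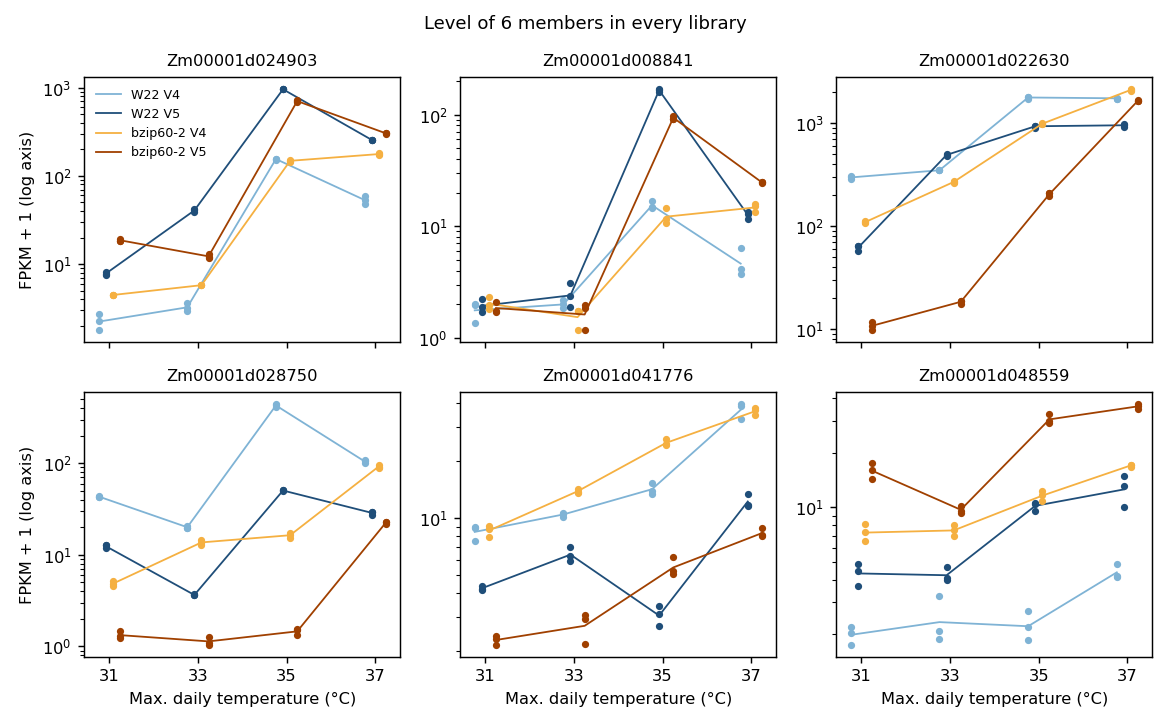
Level of 6 members in every library, as FPKM + 1 on a log axis, against maximum daily temperature in °C. Points are libraries, slightly offset, and lines join the group means. Zm00001d024903 and Zm00001d008841 peak at 35 °C at V5, Zm00001d022630 and Zm00001d028750 lie lowest in bzip60-2 V5 at 31, 33 and 35 °C, Zm00001d041776 dips at 35 °C in W22 V5, and Zm00001d048559 lies lowest in W22 V4.

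At V5 the members were mostly lower in bzip60-2 than in W22 at 33 and 35 °C, the temperatures tested. Over the mean of 33 and 35 °C, 46 of 77 were lower in the mutant and 15 higher, against 12.9% of all genes lower and 38.9% higher. The median difference was −0.31 log2 units over members and 0.13 over all genes. At or past 1 log2 unit, 16 were lower and 2 higher, against 1.39% and 1.36% of all genes. With values divided by size factors, which set the typical gene of every library equal, 51 were lower and 10 higher. The shares of all genes, here and below, are without size factors and are no background for such counts. The medians were then −0.45 over members and −0.002 over all genes.

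The same held at 33 and at 35 °C alone, in comparisons chosen after the values were seen. At 33 °C alone, 43 members were lower in bzip60-2 V5 and 8 higher, against 11.8% and 20.7% of all genes, with medians of −0.43 and 0.08. At 35 °C alone, 40 were lower and 16 higher, against 9.63% and 36.5%, with medians of −0.24 and 0.17. At both temperatures 36 members were lower, as were 5.46% of all genes. At 31 and 37 °C, which were part of the rule and were not tested, the summed share was higher in bzip60-2 V5 than in W22 V5. At 31 °C the shares were 0.291% ± 0.00356 against 0.207% ± 0.00237 (SD, n = 3). At 37 °C they were 1.27% ± 0.00776 against 1.01% ± 0.00587 (SD, n = 3).

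Zm00001d022630, among the 2 most abundant members at 37 °C, had the largest V5 difference over the mean of 33 and 35 °C, −3.47 ± 0.0295 (adjusted p = 9e-45 in limma). Its W22 V5 libraries lay at 481, 495 and 504 FPKM at 33 °C, and its bzip60-2 V5 libraries at 17.9, 17.9 and 16.7 FPKM. At 35 °C they lay at 912, 949 and 954 FPKM in W22 and at 208, 208 and 198 FPKM in the mutant. No library of one genotype reached the other's range. The difference was −4.74 ± 0.0417 at 33 °C (adjusted p = 6.06e-44 in limma) and −2.19 ± 0.0417 at 35 °C (adjusted p = 9.84e-33 in limma). At 37 °C the order was the other way, with 962, 919 and 998 FPKM in W22 V5 and 1638, 1668 and 1702 FPKM in bzip60-2 V5.

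Zm00001d028750 was almost silent in bzip60-2 V5 up to 35 °C. Its libraries there lay at 0.48, 0.22 and 0.29 FPKM at 31 °C, 0.09, 0.04 and 0.28 FPKM at 33 °C and 0.49, 0.56 and 0.33 FPKM at 35 °C. They reached 20.7, 21.9 and 21.8 FPKM only at 37 °C. In W22 V5 it lay at 2.71, 2.59 and 2.62 FPKM at 33 °C and at 49.9, 48.1 and 50.0 FPKM at 35 °C. The mutant libraries were the lower ones at both temperatures. The difference at 35 °C was −5.11 ± 0.0683 (adjusted p = 1.21e-37 in limma). In V4 the gene was also lower in the mutant, by 2.63 ± 0.0483 over the mean of 33 and 35 °C (adjusted p = 2.61e-33 in limma).

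A few members were higher in the mutant. Zm00001d048559 lay at 2.98, 3.07 and 3.67 FPKM in W22 V5 at 33 °C and at 8.34, 9.22 and 8.59 FPKM in bzip60-2 V5. At 35 °C it lay at 9.51, 9.57 and 8.57 FPKM in W22 V5 and at 28, 31.8 and 29 FPKM in bzip60-2 V5. The genotypes did not overlap at either temperature, and the difference over their mean was 1.39 ± 0.101 at V5 (adjusted p = 1.53e-14 in limma) and 2.04 ± 0.101 at V4 (adjusted p = 1.73e-19 in limma). Zm00001d003999 was higher in the mutant at V5 by 1.35 ± 0.128 (adjusted p = 2.19e-11 in limma), at levels of 1.18 to 3.09 FPKM in W22 and 3.19 to 11.5 FPKM in the mutant.

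At V4 the genotype difference was small, and its direction depended on scaling. Over the mean of 33 and 35 °C, 40 members were higher in bzip60-2 V4 and 14 lower, against 43.8% and 12.7% of all genes, so the members' shares of 51.9% and 18.2% were near those of all genes. With size factors 27 were higher and 28 lower. A term for the 2 library sets left 21 higher and 5 lower. That term rests on the W22 V4 library described above that stands apart from its group. The counts with it therefore cannot show whether the calls depend on the library sets. The median difference was 0.21 over members and 0.15 over all genes. Counting changes of at least 1 log2 unit, 6 were higher and 2 lower, against 2.57% and 0.847%. The 2 lower ones were Zm00001d028750 and Zm00001d037681, the latter by 1.08 ± 0.0621 (adjusted p = 1.42e-17 in limma). Zm00001d049902 was higher in the mutant by 2.04 ± 0.136 (adjusted p = 1.25e-15 in limma), with libraries of W22 V4 at 10.7, 10.2 and 18.3 FPKM and of bzip60-2 V4 at 53.8, 63.7 and 70.6 FPKM at 33 °C.

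**Figure D5:**
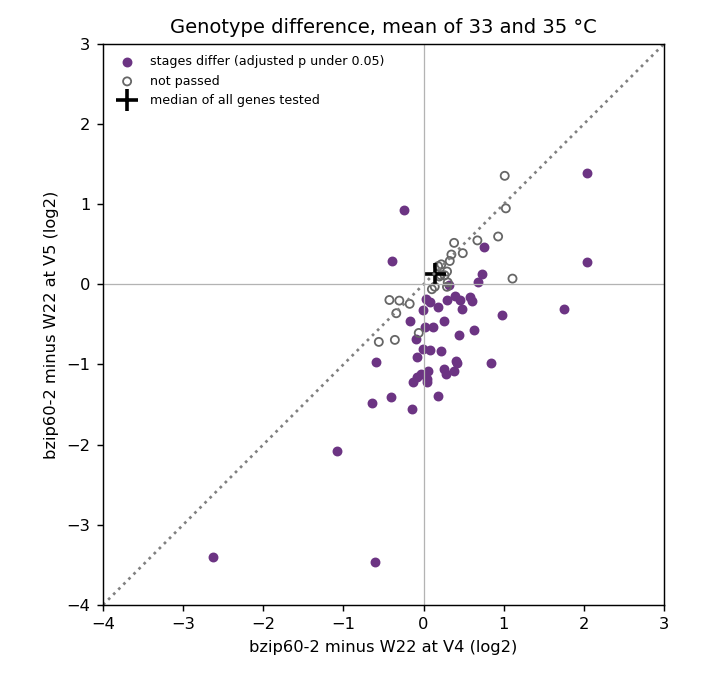
Difference between bzip60-2 and W22 for each of the 77 members over the mean of 33 and 35 °C, at V4 (horizontal axis) and at V5 (vertical axis), on the log2(FPKM + 1) scale. Filled points differ between the stages at an adjusted p under 0.05 in limma, open points do not, the cross is the median of all genes and the dotted line marks equal differences. Of the filled points, 49 lie below the line and 2 above it.

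The genotype difference at V5 lay below that at V4 in most members. In the test of this difference, also chosen after the values were seen, 49 members had a lower value at V5 and 2 a higher one, against 21.2% and 15.1% of all genes. The median was −0.58 over members and −0.03 over all genes. With size factors the counts were 45 and 3. The 2 higher ones were Zm00001d016361 (1.18 ± 0.0720, adjusted p = 2.88e-16 in limma) and Zm00001d038049 (0.68 ± 0.112, adjusted p = 4.87e-06 in limma, and 0.0965 with a term for the library sets). These 2 were also the members lower in the mutant at V4 and higher at V5. The term for the library sets rests on the W22 V4 library that stands apart from its group. That term therefore cannot decide the call of Zm00001d038049. The lowest value was −2.86 ± 0.0417 in Zm00001d022630 (adjusted p = 6.62e-36 in limma).

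Set against each other, 17 members were higher in the mutant at V4 and lower at V5, 12 were lower in both stages and 12 higher in both. A further 17 passed only at V5, where they were lower, and 11 only at V4, where they were higher. Zm00001d013037 passed only at V5 and was higher there. The 5 members that passed in neither stage were Zm00001d002584, Zm00001d007396, Zm00001d020892, Zm00001d039302 and Zm00001d051799. The scatter of the V4 and V5 differences shows these members one by one. The shares of all genes in these joint classes were not computed, so the counts only describe the members. The V4 calls behind them depended on scaling, as given above.

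The members were mostly higher at V5 than at V4, as were most genes. In W22, over the mean of 33 and 35 °C, 55 were higher at V5 and 18 lower, against 66.4% and 14.3% of all genes. The median was 0.86 over members and 0.41 over all genes. By at least 1 log2 unit, 37 were higher and 10 lower, against 12.1% and 2.36%. With size factors 47 were higher and 24 lower. In bzip60-2, 48 were higher and 22 lower, against 65.5% and 13.8%, with medians of 0.52 and 0.38, and with size factors 37 and 31. At or past 1 log2 unit, 22 were higher and 12 lower, against 7.97% and 2.43%. The same direction in both genotypes was found in 48 members that were higher at V5 and 18 that were lower. How many of all genes did the same was not computed, so these counts are not read as particular to the members.

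Zm00001d028561 and Zm00001d046471 showed the largest rises with stage. In W22 at 35 °C, Zm00001d028561 lay at 76.9, 73.5 and 75.5 FPKM at V4 and at 980, 1039 and 937 FPKM at V5. Its stage difference was 3.55 ± 0.0929 in W22 (adjusted p = 3.85e-29 in limma). Zm00001d046471 lay at 99.7, 90.2 and 104 FPKM at V4 and at 636, 660 and 647 FPKM at V5 in W22 at 35 °C. Its stage difference was 3.50 ± 0.0546 in W22 (adjusted p = 2.4e-36 in limma) and 2.85 ± 0.0546 in bzip60-2 (adjusted p = 1.6e-33 in limma). The stages did not overlap in either gene.

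In the other direction, Zm00001d028750 was lower at V5 by 2.77 ± 0.0483 in W22 (adjusted p = 7.8e-35 in limma) and by 3.54 ± 0.0483 in bzip60-2 (adjusted p = 2.55e-38 in limma). In W22 at 35 °C it lay at 428, 412 and 441 FPKM at V4. Zm00001d051799 was lower at V5 in W22 by 2.45 ± 0.176 (adjusted p = 2.02e-15 in limma), with 20.2, 19.9 and 19.7 FPKM at V4 and 3.39, 1.09 and 2.05 FPKM at V5 at 35 °C.

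The change from 33 to 35 °C differed between genotypes in a minority of members. At V4, 20 members had a smaller change in bzip60-2 and 7 a larger one, against 9.26% and 6.30% of all genes, with medians of −0.11 and −0.02. The 7 became 3 with a pseudocount of 0.1 or without W22 V4 replicate 1 at 33 °C, and 4 without bzip60-2 V4 replicate 1 at 35 °C. Counting changes of at least 1 log2 unit, 4 had a smaller value and 1 a larger one, against 0.562% and 0.781%. At V5, 22 had a larger value in bzip60-2 and 8 a smaller one, against 14.1% and 5.02%, with medians of 0.20 and 0.10. With size factors the counts were 19 and 10, and with a pseudocount of 0.1 the 8 became 4. By at least 1 log2 unit, 8 had a larger value and 1 a smaller one, against 1.45% and 0.816%.

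Zm00001d028750 had the lowest value at both stages, −4.16 ± 0.0966 at V4 (adjusted p = 1.26e-28 in limma) and −3.43 ± 0.0966 at V5 (adjusted p = 4.32e-26 in limma). At V4 it rose from 19.4, 18.8 and 18.7 FPKM to 428, 412 and 441 FPKM in W22, and from 11.9, 12.6 and 13.5 FPKM to 14.2, 16.4 and 15.6 FPKM in the mutant. Zm00001d022630 had the highest value at V5, 2.55 ± 0.0590 (adjusted p = 1.09e-28 in limma), from the low mutant level at 33 °C given above. Zm00001d041776, which fell in W22 V5, had a value of 2.08 ± 0.144 (adjusted p = 4.16e-14 in limma), and its bzip60-2 V5 libraries went from 2.09, 1.95 and 1.17 FPKM to 4.05, 5.21 and 4.26 FPKM.

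The change from 33 to 35 °C was also compared between stages, after the values were seen. In W22, 34 members had a smaller value at V5 and 18 a larger one, against 44.2% and 8.66% of all genes, with medians of −0.25 and −0.31. With size factors 27 were smaller and 29 larger, so that this split depends on scaling. In bzip60-2, 28 had a larger value at V5 and 17 a smaller one, against 8.56% and 28.5%, with medians of 0.10 and −0.19, and with size factors 31 and 12. Zm00001d039933 and Zm00001d008841 had the largest values in W22, 3.32 ± 0.251 (adjusted p = 7.8e-14 in limma) and 3.16 ± 0.258 (adjusted p = 6.47e-13 in limma). Zm00001d037232 had a value of −2.87 ± 0.0955 in W22 (adjusted p = 2.8e-24 in limma). At V4 it went from 0.67, 0.86 and 0.89 FPKM to 24.1, 24.8 and 26.8 FPKM, while at V5 it was already at 41.8, 40.1 and 41 FPKM at 33 °C and reached 81.8, 81.7 and 83.8 FPKM.

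The members differed in how closely they followed their common pattern over the 8 groups at 33 and 35 °C. Pearson's r between a member's group means and the median of the other members was 0.811 in the median, and lay between −0.505 and 0.990. It was at least 0.9 in 29 of 77 members, at least 0.8 in 40 and under 0.5 in 23. These values describe 8 points that share libraries and a temperature contrast, and carry no test. The 5 members with r under 0 were Zm00001d016361 (−0.505), Zm00001d051799 (−0.173), Zm00001d042062, Zm00001d041776 and Zm00001d041777.

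Some members lie close together in the identifier numbering, a pattern picked after the values were seen. The numbers of 13 members differ by 10 or less from that of another member, in 5 runs. The largest run has 4 members, Zm00001d028555, Zm00001d028557, Zm00001d028560 and Zm00001d028561, of which 3 are among the 5 that peaked at 35 °C in every series. Their r with each other over the 8 groups lay between 0.814 and 0.988. Zm00001d039933, Zm00001d039935 and Zm00001d039936 had r between 0.954 and 0.990, and their levels in W22 V5 at 35 °C spanned 166 to 2727 FPKM. The other runs are Zm00001d025264 with Zm00001d025266 (r = 0.743), Zm00001d037232 with Zm00001d037234 (r = 0.879) and Zm00001d041776 with Zm00001d041777 (r = 0.951). The 3 identifiers of the table that lie between members of a run are not members, with a smallest rise to 37 °C of −0.33 to 0.41 log2 units. Where neighbouring genes are near-identical copies, their reads could be split between them by the counting, and their separate values are then uncertain. This was not tested.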

How the data were processed

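RNA-seq of 48 maize leaf libraries was used, 3 in each of 16 groups assigned from the labels. The authors deposited 1 table of FPKM values per gene, written to 2 decimals. The submitters' processing notes name HISAT, HISAT2 2.0.4, Bowtie2 2.2.5, RSEM 1.2.12 and DESeq2 1.4.5 without roles, and no source used here gives the build or annotation. The read depth is unknown. Judged by the smallest step between values of low genes, depth relative to the typical library lay between 0.777 and 1.07. FPKM sums lay between 869999 and 941520 per library, and 24520 to 26641 genes were above 0.

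Values were analysed as log2(FPKM + 1), which understates changes of low genes. Genes with at least 1 FPKM in 3 libraries (22794) entered 1 limma fit (limma 3.58.1, R 4.3.3, empirical Bayes with trend) with 16 group means. Tests were two-sided, and Benjamini-Hochberg adjustment ran over all these genes. The code was tested on simulated data, where it missed more of the smaller changes than of the larger ones, and the pass limit of that test was lowered after a first run. A member that did not pass may therefore still differ by a small amount. Contrasts with libraries at 31 or 37 °C were described and not tested, since these chose the members.

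The members, lists and rules were chosen with earlier results of these data known. Besides 10 planned comparisons, 11 were computed after the data were seen and 5 of these are reported. In each comparison or pattern at most 2 members in each direction were named by the size of their change. Named as well were the 2 most abundant at 37 °C, the 2 with the largest smallest rise and the neighbours of the threshold. Members behind counts of 5 or fewer, those in identifier runs and the 6 plotted were named after their values were seen. Alternatives were a pseudocount of 0.1, other filters and thresholds, size factors (0.752 to 1.32), a fit of only the groups compared, a library-set term, a replicate block and each replicate left out in turn. All printed shares of all genes come from values without size factors. They are no background for the counts with size factors.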

Additional observations from a re-analysis of the deposited data

Results flagged for a closer look

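Each value here is a difference between 2 genotypes or stages in the same contrast that passed a test of that difference itself, an interaction contrast in limma at an adjusted p under 0.05. All are differences of log2(FPKM + 1) or counts of the 77 members.

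The change from 33 to 35 °C was compared between genotypes. At V4 it was larger in bzip60-2 in 7 members and smaller in 20, against 6.30% and 9.26% of all genes. The largest were Zm00001d004243 (1.14, a call lost with a pseudocount of 0.1, adjusted p = 0.0741 in limma) and Zm00001d031657 (0.77), and the smallest were Zm00001d028750 (−4.16) and Zm00001d038049 (−2.20). At V5 it was larger in bzip60-2 in 22 members and smaller in 8, against 14.1% and 5.02% of all genes. The largest there were Zm00001d022630 (2.55) and Zm00001d041776 (2.08), and the smallest were Zm00001d028750 (−3.43) and Zm00001d028408 (−0.97, a call lost with a pseudocount of 0.1, adjusted p = 0.0508 in limma).

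The same change differed between stages. In W22 it was larger at V5 in 18 members and smaller in 34, against 8.66% and 44.2% of all genes. The 34 were 44.2% of members, and the split depended on scaling, as given above. At the top were Zm00001d039933 (3.32) and Zm00001d008841 (3.16), and at the bottom Zm00001d011797 (−3.54) and Zm00001d037232 (−2.87). In bzip60-2 the change was larger at V5 in 28 members and smaller in 17, against 8.56% and 28.5% of all genes. Zm00001d042062 (3.13) and Zm00001d008841 (2.86) were at the top, and Zm00001d031657 (−2.0) and Zm00001d011642 (−1.57) at the bottom. Zm00001d042062 was near 0 FPKM in many of these libraries.

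The genotype difference over the mean of 33 and 35 °C was higher at V5 than at V4 in 2 members and lower in 49. Among all genes it was higher in 15.1% and lower in 21.2%. Zm00001d016361 (1.18) and Zm00001d038049 (0.68, adjusted p = 0.0965 in limma with a term for the library sets) were the higher members. Zm00001d022630 (−2.86) and Zm00001d028557 (−2.06) were the lowest. With a term for the library sets the value of Zm00001d028557 was 0.051 (adjusted p = 0.96 in limma). That term rests on replicate 3 of W22 V4 at 37 °C, where this gene lay at 30.8 FPKM. Zm00001d028557 varied between W22 V4 libraries, with 17.5, 6.04 and 11.7 FPKM at 35 °C and 6.69, 6.02 and 30.8 FPKM at 37 °C.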

How the results depend on the processing

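The depth is unknown and each group has 3 libraries, which limits the precision, most of all for members near 0 FPKM. Most counts stayed within 1.5 times their value under every alternative run. The exceptions follow, and their cause was not tested. With size factors, 28 members were lower in bzip60-2 V4 (14 without), 29 had a larger rise from 33 to 35 °C at V5 than at V4 in W22 (18 without) and 1 fell from 33 to 35 °C in bzip60-2 V5 (2 without). Size factors moved the median of all genes by over 0.1 in most comparisons, at most in V5 against V4 in W22, from 0.41 to 0.05 log2 units, where the members' median went from 0.86 to 0.58. A fit of only the groups compared also gave 1 for the last. The library-set term left 21 members higher and 5 lower in bzip60-2 V4, and 1 with a higher genotype difference at V5 than at V4. It turned the stage difference in the genotype difference of Zm00001d028557 from −2.06 to 0.051. The library-set term rests on the W22 V4 library that stands apart from its group. It therefore cannot show whether these results depend on the library sets. A pseudocount of 0.1 left 3 members with a larger 33 to 35 °C change in the mutant at V4 (7 with 1) and 4 with a smaller one at V5 (8 with 1), and the calls of Zm00001d004243 (adjusted p = 0.0741 in limma) and Zm00001d028408 (0.0508) were lost. It gave 171 members by the rule, and a threshold of 0.8 gave 137, both holding all 77.

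With each library left out in turn, the count by the rule ran from 76 to 80. The falls from 33 to 35 °C numbered 1 to 2 in bzip60-2 V4, with 1 without replicate 2 at 35 °C, and 1 to 3 in bzip60-2 V5, with 1 without replicate 2 or 3 at either temperature. The larger rises in the mutant at V4 numbered 3 to 7, with 3 without replicate 1 of W22 at 33 °C and 4 without replicate 1 of bzip60-2 at 35 °C.

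Replicate numbers did not pair the samples: over 360 pairs of same-numbered libraries of different groups, the correlation of their deviations from the group means ran from −0.0941 to 0.0960, and 0 pairs were over 0.1. The fit with a replicate block gave 70, 58, 66 and 64 members higher at 35 than at 33 °C in W22 V4, W22 V5, bzip60-2 V4 and bzip60-2 V5.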
